A study of Mus musculus with 18 samples.

Results

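The Krüppel-like factors (KLFs) described here are 10 genes of mouse: Klf1, Klf2, Klf3, Klf4, Klf5, Klf6, Klf7, Klf9, Klf10 and Klf13. For each gene, all accessible sites in the gene body and within 50 kb of its most upstream start site were collected, which gave 120 of 82391 reference peaks, 76 of 59617 extended regions (0.127%) and 126 of 84660 summits. A reference peak is a stretch of open chromatin, a summit is its highest point, and an extended region is a widened peak joined with any neighbour it then touches. The sites came from ATAC-seq, in which a transposase cuts DNA that is not packed away in nucleosomes.

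The cells were macrophages grown from bone marrow (BMDMs). They came from wild type mice, male and of the C57/BL6 strain according to the study's methods. DMSO, the vehicle, was given to all cells for 1 h. Untreated cells received nothing else, whereas the other cells were given 10 ng/mL of LPS or 10 ng/mL of IL4 for 30 min, 1 h, 2 h or 4 h, which makes 9 groups of 2 libraries and 18 libraries in all. LPS, a bacterial membrane component, elicits an inflammatory response in macrophages, whereas IL4 elicits an alternative, tissue repair type of response. The 3 lists were merged over all libraries and had 0 columns for single libraries, so that the effect of LPS, IL4 or time on a KLF site was not analysed here, and no value below has a replicate error or a test. Every site is therefore one that was open in the merged data, and not a site assigned to a given stimulus.

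KLFs bind GC-rich DNA and CACCC boxes with a C-terminal array of zinc fingers, a domain they share with the SP factors. Outside this domain they differ, and some recruit acetyltransferases as activators, whereas others recruit the corepressors CtBP or Sin3 and silence their targets. In macrophages Klf2 and Klf4 are known to restrain inflammatory activation, Klf4 also takes part in the response to IL4, and Klf6 is known for the opposite, pro-inflammatory role. Klf2 is in addition a textbook target of the MEK5, ERK5 and MEF2 pathway, in which MEF2 proteins bind AT-rich DNA in its promoter.

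The DNA under several KLF summits held such AT-rich sites. Up to 100 bp of sequence on each side of a region's best summit was searched on both strands for the MEF2 consensus, which is 10 bases long. It was present in 4 of 76 KLF regions, against 2.85% of all extended regions in the list. Of the 4 regions, 3 lay at the start sites of Klf2, Klf6 and Klf7 and the other was the best scored distal region of Klf2, at -23.1 kb. Among promoter regions, that is regions with their best summit within 1000 bp of any start site, 3 of 23 around KLF genes had the consensus (13.0%), against 1.32% of promoter regions in the list. Among the remaining, distal regions it was 1 of 53 (1.89%), against 3.37%. The sequences are shown because they resemble each other beyond the consensus. They run 5′ to 3′ on the strand of the gene, on build mm10, with the MEF2 consensus in capitals. The first was cut at the annotated start site, and lies at chr8:72318873-72319032 (+ strand). The others lie at chr8:72295798-72295998 (+ strand), chr13:5861198-5861398 (+ strand) and chr1:64121637-64121837 (- strand).
Klf2 start site: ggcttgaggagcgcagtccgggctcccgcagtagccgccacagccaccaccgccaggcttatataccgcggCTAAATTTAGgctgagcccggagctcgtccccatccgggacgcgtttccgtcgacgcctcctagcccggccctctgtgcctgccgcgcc
Klf2 distal: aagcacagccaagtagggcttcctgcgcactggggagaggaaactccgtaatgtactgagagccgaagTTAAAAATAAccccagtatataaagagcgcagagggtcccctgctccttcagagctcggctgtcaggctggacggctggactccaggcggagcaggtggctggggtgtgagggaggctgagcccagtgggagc
Klf6 start site: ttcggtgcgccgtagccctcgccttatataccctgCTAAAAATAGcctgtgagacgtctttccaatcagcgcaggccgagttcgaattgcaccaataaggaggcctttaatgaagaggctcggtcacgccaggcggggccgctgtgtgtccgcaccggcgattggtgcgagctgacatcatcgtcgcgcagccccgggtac
Klf7 start site: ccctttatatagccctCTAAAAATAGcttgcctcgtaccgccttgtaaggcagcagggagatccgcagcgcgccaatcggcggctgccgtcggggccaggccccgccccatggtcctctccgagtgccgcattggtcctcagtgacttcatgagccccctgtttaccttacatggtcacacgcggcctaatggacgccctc

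In each of the 4 sequences the heptamer TTATATA stood next to the MEF2 consensus. At the start sites of Klf2, Klf6 and Klf7 it preceded the consensus on the gene strand, with 6, 5 and 5 bases between them. At the distal Klf2 region the same order was read on the opposite strand, with 6 bases between them. The MEF2 match itself was CTAAAAATAG at both Klf6 and Klf7, CTAAATTTAG at the Klf2 start site and TTAAAAATAA at the distal Klf2 region. TTATATA alone was found in 1.29% of all regions. The arrangement with a gap of 5 or 6 bases occurred in 6 of 59617 regions (0.0101%), and 4 of these 6 were the KLF regions. All 3 promoter regions of the list with this arrangement were those of Klf2, Klf6 and Klf7, while the other 2 regions were distal, scored 486 and 476, and had Tmem17 and Iqch as their nearest coding genes. The heptamer, its pairing with the MEF2 consensus and the gap were all read from the KLF sequences, so that these counts are a description and include those 4 regions by construction. With any gap from 0 to 20 bases, 10 regions of the list had the arrangement, the same 4 KLF regions among them by the same choice. In the whole mm10 genome, the arrangement with 5 or 6 bases occurred 1287 times, and in 6 of these the MEF2 match lay inside a reference peak. The share of the genome inside reference peaks was not computed for comparison. A match is letters in a window and does not show that a MEF2 protein was bound.

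A reference peak lay within 1000 bp of an annotated start site in 9 of 10 KLF genes, against 56.5% of 21938 protein-coding genes. For these 9 genes the highest summit of the whole window was one at the gene's own start site, which was also the case in 43.6% of 12321 protein-coding genes with a start site summit. The deposited summit score, a whole number whose scale is not stated, was 2258 at Klf13, 2179 at Klf10, 2140 at Klf3, 1969 at Klf7, 1942 at Klf6, 1851 at Klf2, 1734 at Klf4, 1568 at Klf9 and 1543 at Klf5. All 9 values were above the median of the best start site summit over 12321 protein-coding genes that had one (1456), and 6 of 9 were above its upper quartile (1799). Klf13 exceeded 98.3% of these genes, whereas Klf5 exceeded 55.8%. Without a replicate error, neighbours in this order cannot be told apart from each other, and the scores took only 219 distinct values over the list.

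In 7 of 9 genes the start site summit was at most 200 bp away from the most upstream start site, and in 6 of them it was upstream. Klf7 and Klf10 were the exceptions. In Klf7 the best summit was at +545 bp, in an annotated intron and 246 bp from another start site of the gene. In Klf10 it was at +1622 bp, 2 bp from an internal start site, and the summit at -133 bp scored 1995.

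**Figure D1:**
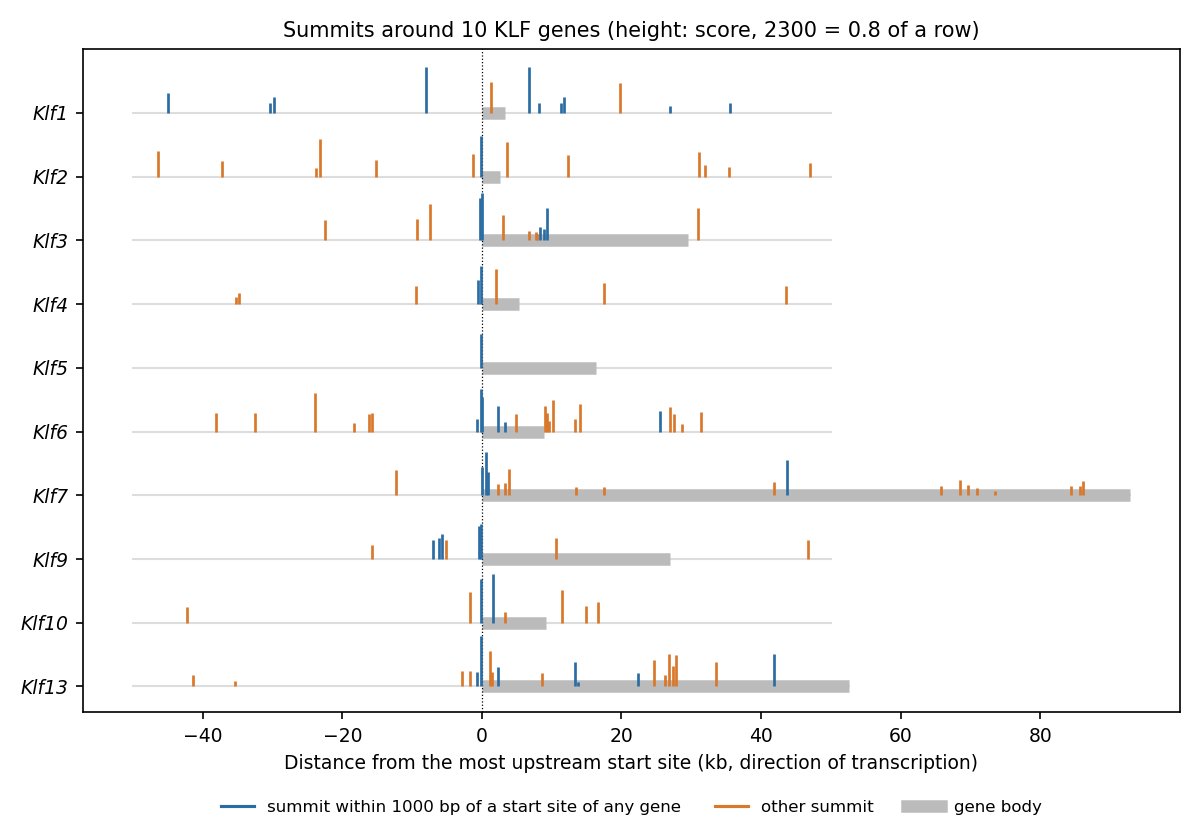
Summits around the 10 KLF genes by distance from the most upstream start site, in kb and in the direction of transcription; line height is the summit score, grey bars are gene bodies, and blue lines lie within 1000 bp of a start site of any gene. Klf5 has a single summit, Klf6 has 23 on both sides of the gene, 18 of 19 Klf7 summits lie inside its 92836 bp gene body, and Klf1 has no line at its start site.

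Klf1, the erythroid factor that activates the beta-globin gene, was the member without a start site peak (chr8:84901928-84905291, + strand). The nearest peak began 1018 bp from its only annotated start site, and a start site window of 2500 bp in place of 1000 bp would count it. This peak had its summit at +1297 bp in a coding exon, with a score of 1381. At 443 bp it was as wide as the start site peak of Dnase2a, and no peak of the window was wider. It was also the only one of 9 extended regions in the window whose nearest coding start site was that of Klf1. The window held start site peaks of 5 other protein-coding genes, namely Dnase2a (best score 2074), Gcdh (2061), Farsa (923), Syce2 (716) and Mast1 (467), so that 10 of the 12 summits lay within 1000 bp of a start site of another gene. The Syce2 region had 2 summits over 2221 bp. The second summit away from start sites, at +19.8 kb with a score of 1357, lay in an intron of Mast1, which a long Dnase2a transcript overlaps. In the erythroid marker list 1 of 8 genes had a start site peak, against 56.5% of all protein-coding genes. This gene was Ermap, with a score of 358.

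Klf1 also stood apart in base composition. The ratio of observed to expected CpG, over 500 bp to each side of the most upstream start site, was 0.078 in Klf1, and 0.713 (Klf2) to 1.03 (Klf9) in the other 9 genes. The median was 0.719 over protein-coding genes with a start site peak and 0.229 over those without. Only 5.33% of protein-coding genes had a lower ratio than Klf1, whereas 96.3% had a lower ratio than Klf4. The 200 bases upstream of the start sites of these genes, with every CG in capitals, show this contrast. The Klf1 stretch is chr8:84901728-84901927 (+ strand) and held 3 CG, and the Klf4 stretch is chr4:55532467-55532666 (- strand) and held 25. The bases around the Klf1 exon summit, chr8:84903125-84903325 (+ strand), are shown last, here with a GC box in capitals. They held 18 CG, were 68.7% G or C and carried a GC box and an NF-kB consensus.
Klf1 upstream: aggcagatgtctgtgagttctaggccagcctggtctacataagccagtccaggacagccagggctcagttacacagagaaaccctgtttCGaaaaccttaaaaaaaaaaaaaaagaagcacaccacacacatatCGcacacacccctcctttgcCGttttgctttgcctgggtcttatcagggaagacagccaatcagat
Klf4 upstream: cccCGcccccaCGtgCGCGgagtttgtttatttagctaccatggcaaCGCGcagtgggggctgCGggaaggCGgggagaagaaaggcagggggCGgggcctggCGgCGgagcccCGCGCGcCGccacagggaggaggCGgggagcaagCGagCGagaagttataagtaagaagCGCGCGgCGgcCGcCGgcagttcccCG
Klf1 exon summit: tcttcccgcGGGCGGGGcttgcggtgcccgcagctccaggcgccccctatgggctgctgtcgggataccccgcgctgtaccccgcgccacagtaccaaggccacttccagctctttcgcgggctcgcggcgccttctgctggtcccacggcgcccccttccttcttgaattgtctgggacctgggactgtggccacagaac

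**Figure D2:**
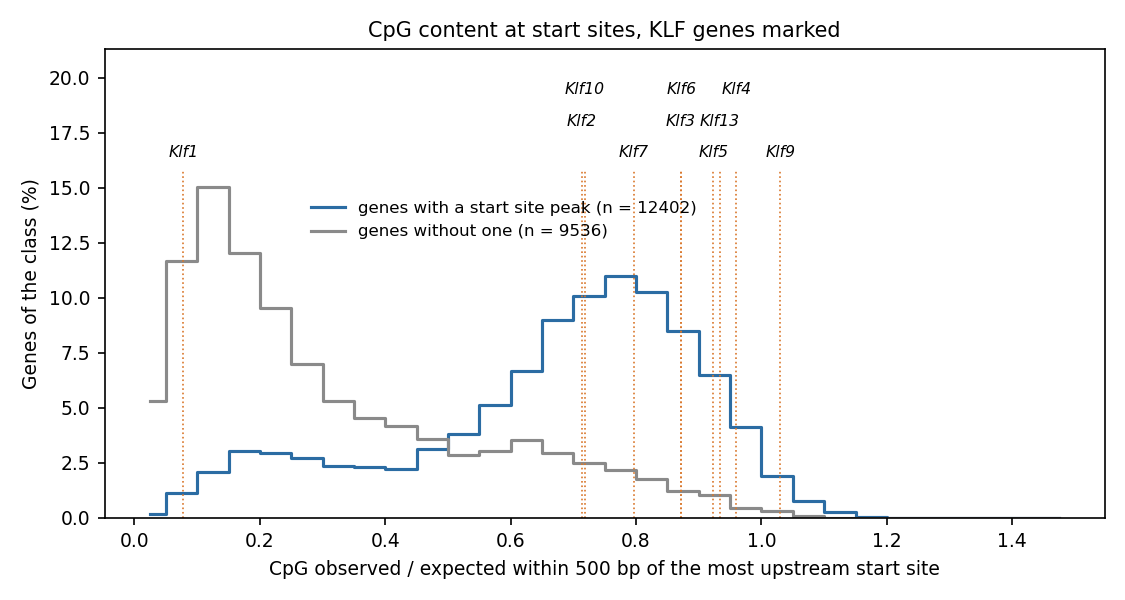
Ratio of observed to expected CpG over 500 bp to each side of the most upstream start site, as the share of protein-coding genes in each bin of the ratio, in percent, with (blue) and without (grey) a start site peak; dotted lines mark the KLF genes. Klf1 (0.078) falls among genes without a start site peak, and the other 9 KLF genes lie between 0.713 and 1.03.

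Klf5, known for its role in the proliferating epithelium of the gut, was the opposite case, with a start site peak and nothing else. Its window (gene at chr14:99298691-99315036, + strand) held a single peak of 223 bp, chr14:99298442-99298664, with 1 summit at -124 bp, in an extended region of 1623 bp. The gap to the preceding reference peak was 97654 bp and the gap to the following one 1636006 bp. Of 12402 protein-coding genes with a start site peak, 385 (3.1%) had only 1 extended region in their window. Of all summits within 1000 bp of a start site, 77.6% scored lower than its 1543. None of the consensus sites searched was found within 100 bp of it. The sequence, chr14:99298467-99298667 (+ strand, CG in capitals), is shown as the only accessible sequence of this gene.
Klf5 start site: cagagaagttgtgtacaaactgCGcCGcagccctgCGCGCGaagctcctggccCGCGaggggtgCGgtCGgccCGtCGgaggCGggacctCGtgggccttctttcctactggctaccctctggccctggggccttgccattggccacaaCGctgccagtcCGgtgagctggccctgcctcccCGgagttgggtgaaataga

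Klf6, an immediate early factor induced on injury, had the densest surroundings of the KLF genes (chr13:5861482-5870394, + strand). Its window held 22 peaks with 23 summits in 11 extended regions, and the edge of another region. These were more peaks than in 94.3% of protein-coding genes. There was no start site of another protein-coding gene in the window, and the nearest coding start site of all 12 regions was that of Klf6. The widest peak, 511 bp with 2 summits, lay at the start site. Besides 6 summits within 1000 bp of a start site there were 17 distal ones, 6 upstream and 11 downstream, from -38.0 kb to +31.4 kb. They scored 349 to 1760, with a median of 823, and most of the downstream ones fell into clusters. A region of 2791 bp with its best summit at +10.1 kb (score 1431) had 4 peaks, and another of 4811 bp with its best summit at +27.0 kb (score 1129) also had 4, one of them at the noncoding gene Gm47507.

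The best distal summit of all KLF genes, by score, lay at -23.9 kb of Klf6 (score 1760). Its sequence contained the AP-1 consensus, the binding site of FOS and JUN dimers, more than once. AP-1 sites were found in 4 of 12 Klf6 regions, namely those at -23.9, -15.7, +2.3 and +31.4 kb. The sequence around the best of them is chr13:5837451-5837651 (+ strand), with AP-1 consensus sites in capitals. In contrast to the start site sequences above it held 0 CG.
Klf6 distal: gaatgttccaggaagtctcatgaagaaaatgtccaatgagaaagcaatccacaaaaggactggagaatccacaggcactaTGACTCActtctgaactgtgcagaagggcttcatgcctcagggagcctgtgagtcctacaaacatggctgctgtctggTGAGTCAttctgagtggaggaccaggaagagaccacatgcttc

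Klf2, a factor of quiescent endothelium and T cells, had the second largest number of regions (chr8:72319033-72321656, + strand). Its window held 13 peaks in 10 regions and the edge of another region, but only 1 of its 13 summits was at a start site, that at -60 bp in a peak of 500 bp, the widest of the window. The 12 distal summits scored 384 to 1708, with a median of 858, against 664 for all distal summits in the list. The best of them were at -23.1 kb (1708, with the MEF2 site shown above, in a region of 2396 bp with 2 peaks), +3.6 kb (1543) and -46.4 kb (1164). None of the 13 summits lay inside the 2624 bp gene body, and 4 lay in introns of Eps15l1. The nearest coding start site was that of Klf2 for only 3 of 11 regions, since Gm10282, Ap1m1 and Eps15l1 are closer to the others. Gm10282 starts at -13.8 kb and had no start site peak.

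Klf4, which drives monocyte differentiation and is one of the classical reprogramming factors, had 7 peaks in 6 regions (chr4:55527143-55532466, - strand). Its start site peak of 600 bp had 2 summits, at -158 bp (1734) and -508 bp (1094), in a region of 2000 bp. The best distal summit, at +2.1 kb, lay in a coding exon of Klf4 itself and scored 1594. The remaining distal summits scored 307 to 945 and were spread from -35.3 kb to +43.6 kb. Every one of the 6 regions had Klf4 as the nearest coding start site, and each carried at least 1 of the consensus sites searched.

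Klf3, a repressor that works through CtBP, had 12 peaks in 7 regions (chr5:64803388-64832901, + strand). Its start site peak of 802 bp had summits at +17 bp (2140) and -330 bp (1903). A single region of 4344 bp in the gene body held 6 peaks, with summits from +6.7 to +9.3 kb that scored 274 to 1443, the highest at the downstream end. Of these, 3 lay within 1000 bp of internal start sites of the gene. The best distal summit, at -7.4 kb, scored 1632 and was the only KLF region with the consensus sites of PU.1, IRF and C/EBP together, factors that shape enhancers of macrophages. A region at -9.2 kb (score 968) had PU.1 and AP-1 sites, and the region at +9.3 kb another PU.1 site, which made 3 of the 6 PU.1 sites around KLF genes. The sequence at -7.4 kb is chr5:64795860-64796060 (+ strand), with IRF, PU.1 and C/EBP sites in capitals in this order.
Klf3 distal: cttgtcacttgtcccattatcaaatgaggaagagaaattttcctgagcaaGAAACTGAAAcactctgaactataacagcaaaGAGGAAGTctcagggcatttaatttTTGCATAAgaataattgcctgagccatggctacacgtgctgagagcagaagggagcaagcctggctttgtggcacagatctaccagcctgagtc

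Klf13, known for the late induction of the chemokine CCL5 in T cells, had 20 peaks in 10 regions (chr7:63886351-63938915, - strand). The region at its start site was the widest of the KLF set, with 7 peaks over 6880 bp and summits from -2.8 kb to +2.4 kb. These scored 654 to 1619 apart from the best one at -181 bp (2258), which ranked 167 of 84660 and lay in the widest peak of the window (800 bp). A group of 4 peaks within the gene, with summits at +26.3, +26.8, +27.4 and +27.9 kb, scored 524 to 1468. In all, 14 of 20 summits lay in introns of Klf13. The coding gene E030018B13Rik starts inside Klf13 at +22.1 kb with a summit of 623, and is the nearest coding start site to the intronic group. The Klf13 start site sequence, chr7:63938996-63939196 (- strand), is shown as the best scored KLF promoter, with a CACCC box followed by a GC box in capitals, both read on the opposite strand.
Klf13 start site: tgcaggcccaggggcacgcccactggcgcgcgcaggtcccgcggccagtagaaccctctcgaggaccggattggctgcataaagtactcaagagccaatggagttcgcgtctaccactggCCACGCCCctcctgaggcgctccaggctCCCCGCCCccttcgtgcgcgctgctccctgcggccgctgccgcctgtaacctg

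Klf7, a factor of neuronal development, was the longest gene and had the weakest distal sites (chr1:64029447-64122282, - strand). It had 17 peaks in 10 regions, and 18 of 19 summits lay inside the gene. Its start site peak was the widest KLF peak, with 1017 bp and 3 summits at +5 bp (1284), +545 bp (1969) and +809 bp (1059), in a region of 5619 bp with 6 summits. The 15 distal summits had a median score of 467, the lowest median of the KLF genes, and a maximum of 1164 at +3.9 kb. The 8 summits over 60 kb downstream scored 196 to 706. A summit of 1594 at +43.7 kb was an exception in the gene body, and lay 104 bp from a start site of the noncoding gene Gm13748. Since the window covers the whole gene body, it was 142.8 kb long in Klf7, against at most 102.6 kb in the other genes.

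Klf9 and Klf10, both known to be induced by hormones or growth factors, had 5 regions each. Klf9 (chr19:23141226-23168134, + strand), which responds to glucocorticoids, had a start site peak of 594 bp with summits at -154 bp (1568) and -362 bp (1505). Another 4 peaks formed a region of 3461 bp with summits from -7.0 to -5.2 kb (scores 845 to 1106), at the noncoding gene 2410080I02Rik. Its other sites were single, and the best distal summit at +10.6 kb scored 956, the lowest such maximum of the KLF genes with distal sites. Klf10 (chr15:38291463-38300706, - strand), an early gene of TGF-beta signalling that recruits Sin3, had both a peak at its upstream start site and a peak of 857 bp at its internal start sites. Together with 2 further peaks they formed a region of 6519 bp. Its best distal summit at +11.5 kb scored 1493, and none of the consensus sites was found there.

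The number of extended regions was 12 for Klf6, 11 for Klf2, 10 for Klf7 and Klf13, 9 for Klf1, 7 for Klf3, 6 for Klf4, 5 for Klf9 and Klf10 and 1 for Klf5. The median was 8, against 5 over all protein-coding genes and 7 over those with a start site peak. The KLF values thus spanned much of the range of genes with a start site peak, whose quartiles were 5 and 10. Of the 76 regions, 54 had the KLF gene as the nearest coding start site, and with these alone the median was 5. This median was not computed over other genes, so it cannot be set against the medians above. In 2 regions, at -50.5 kb of Klf2 and +50.2 kb of Klf6, only an edge lay in the window and the best summit lay outside. No region was shared by a pair of members.

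**Figure D3:**
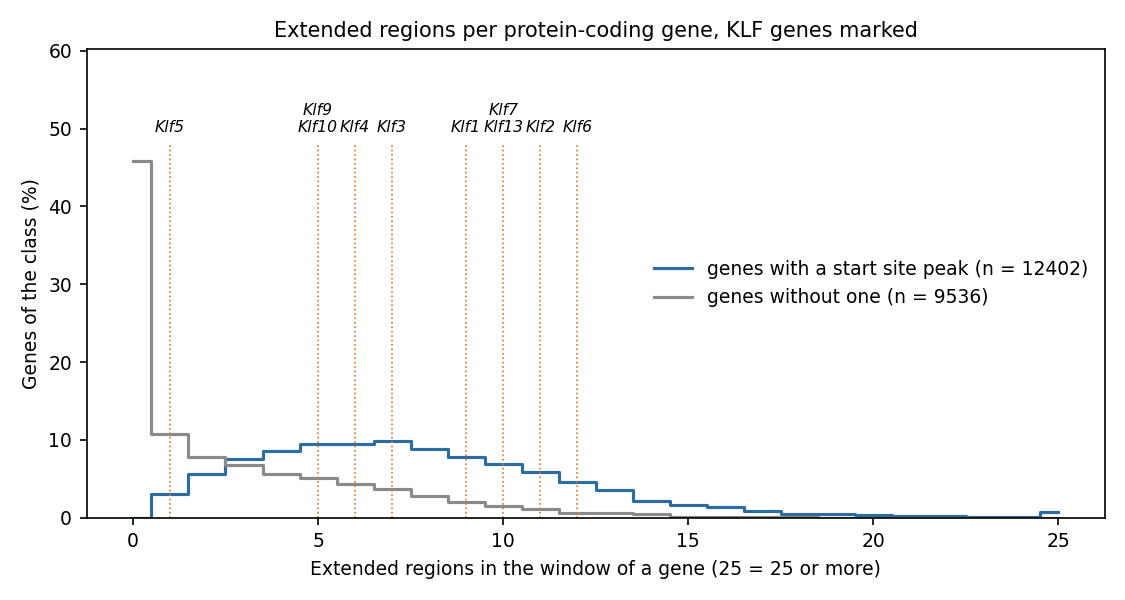
Number of extended regions in the window of each protein-coding gene, as the share of genes in percent with (blue, n = 12402) and without (grey, n = 9536) a start site peak; dotted lines mark the KLF genes. Klf5 has 1 region and the others have 5 to 12, with the median of genes with a start site peak at 7.

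Over all 126 KLF summits the median score was 856, against 737 over the list. Part of the summits lay at promoters, and the comparison was therefore also made within each class. The median was 1094 for 43 KLF summits within 1000 bp of a start site, against 990 in the list, and 791 for 83 distal KLF summits, against 664 in the list. Of all KLF summits, 40 (31.7%) were at or above the upper quartile of the list, and 8 of 10 genes had such a distal summit, with Klf5 and Klf9 as the exceptions. The share was 40.6% over all protein-coding genes and 55.7% over those with a start site peak. Of the 10 best scored KLF summits, 8 were at the gene's own start site, and the others were the start site summits of Dnase2a and Gcdh in the Klf1 window. Of the 83 distal summits, 46 lay outside protein-coding genes, 34 in introns and 3 in coding exons, those of Klf1, Klf4 and Klf10 (+3.3 kb, score 505).

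**Figure D4:**
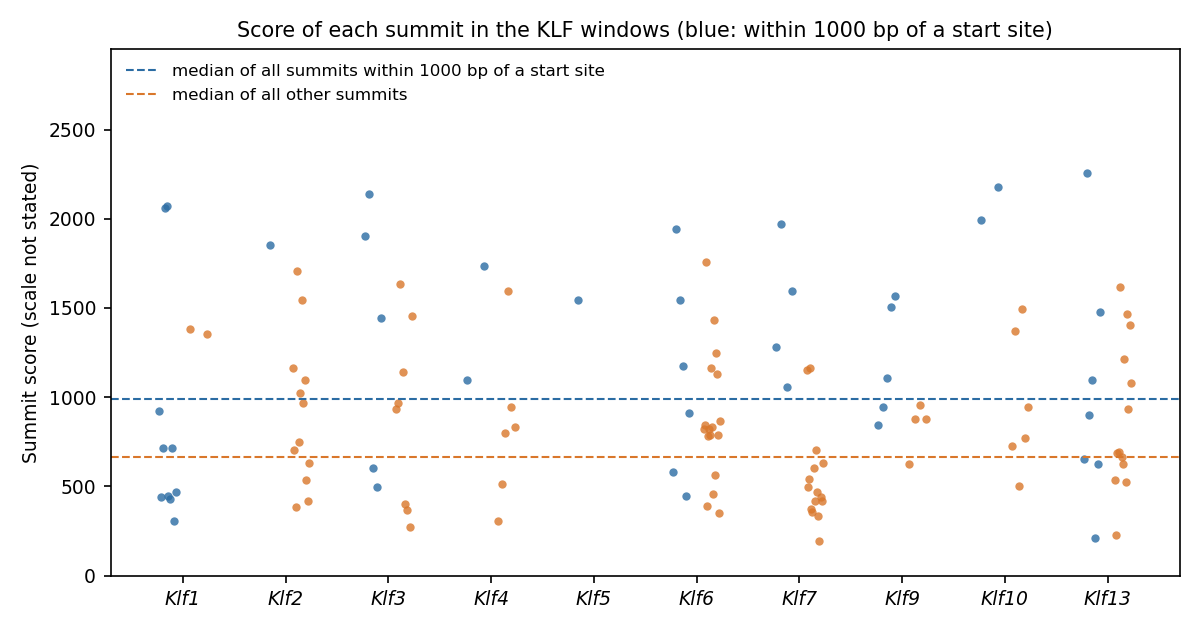
Score of every summit in the window of each KLF gene, with summits within 1000 bp of a start site of any gene in blue and other summits in orange; dashed lines are the medians of the whole list (990 and 664). The best start site summits of 9 genes sit at 1543 to 2258, and most Klf7 distal summits lie below the orange line.

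Promoter regions made up 23 of the 76 KLF regions (30.3%), against 25.0% of the list. Of these 23 regions, 7 were promoters of other genes in the Klf1 window, and without it the share was 16 of 67 (23.9%), below that of the list. KLFs bind the GC box GGGCGGGG and CACCC boxes (GGGTGTGG or GGGCGTGG), and such an SP/KLF site was found within 100 bp of the best summit in 15 of 76 KLF regions (19.7%, 95% Wilson interval 12.3 to 30.0%), against 11.2% of the list. The intervals cover counting error only, and regions around the same gene are not independent. In promoter regions the count was 10 of 23, against 30.0% of the list, and in distal regions 5 of 53, against 4.92%. The window of Klf1 contributed 5 of the 15 regions, of which 4 were promoters of its neighbours. Without this window the share was 10 of 67 (14.9%), nearer to the 11.2% of the list. No interval was computed for shares without this window, so a difference from the list is not shown there. At the start sites of the KLF genes themselves, 5 of 9 regions had a GC box, namely those of Klf3, Klf4, Klf7, Klf10 and Klf13, against 23.8% of promoter regions in the list. In all promoter regions around KLF genes the GC box was found in 10 of 23 (43.5%, interval 25.6 to 63.2%), and in 6 of 16 (37.5%) without the Klf1 window. The start site regions of Klf2, Klf5, Klf6 and Klf9 had neither a GC box nor a CACCC box. Median GC content was 62.7% in all 23 KLF promoter regions and 61.2% in those of the list. At the start sites with a GC box it was 78.6% (Klf3), 76.1% (Klf4), 61.2% (Klf7), 80.1% (Klf10) and 69.2% (Klf13). At the others it was 68.2% (Klf2), 67.2% (Klf5), 59.2% (Klf6) and 63.2% (Klf9). The part of base composition in the GC box counts was not tested.

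For AP-1, PU.1 and C/EBP, which occupy many macrophage enhancers, the share in the list lay inside the interval of the KLF share. The AP-1 consensus (TGAGTCA or TGACTCA) was found in 13 of 76 KLF regions, against 17.3% of the list, and in 10 of 53 distal ones, against 20.5%. The PU.1 consensus GAGGAAGT was found in 6 of 76 regions, against 10.1%, and in 4 of 53 distal ones, against 11.6%. The C/EBP consensus TTGCNNAA occurred in 11 regions (list 11.7%), most often around Klf7, with 3. Of sites for factors downstream of the stimuli, NF-kB (LPS) was found in 6 regions, all distal (list 5.34%), IRF in 3 (list 3.73%) and STAT6 (IL4) in 7 (list 6.91%). The NF-kB regions were at -50.5 and -37.2 kb of Klf2, -32.5 kb of Klf6, +65.7 kb of Klf7, +33.5 kb of Klf13 and the Klf1 exon. RUNX sites (TGTGGTTT or TGTGGTTA) were found in 1 region (list 5.11%). The CTCF consensus was in 0 of 76 regions (list 3.63%), and the CRE TGACGTCA was in 0 (list 1.06%), for which the upper limit of the interval was 4.81% in both cases. No searched site was found in 26 regions (34.2%), against 39.9% of the list.

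**Figure D5:**
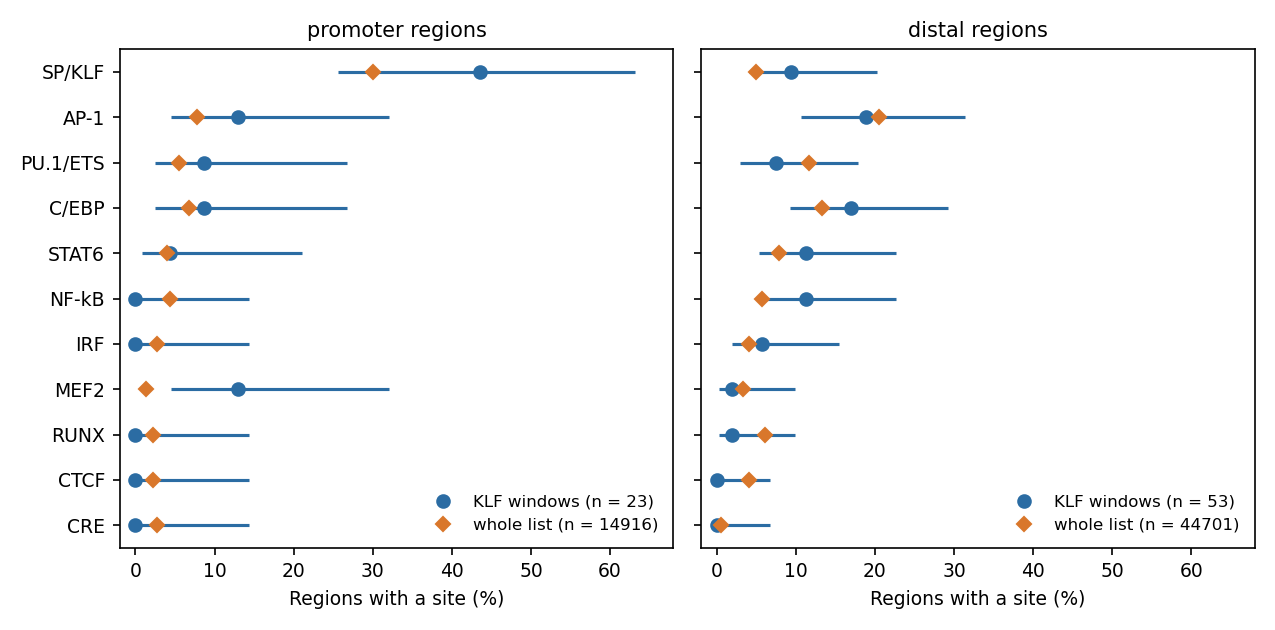
Percent of regions with each consensus site within 100 bp of the best summit, in promoter regions (left) and distal regions (right), for the KLF windows (blue, bars are 95% Wilson intervals over regions) and for the whole list (orange). In promoter regions the MEF2 share of the list (1.32%) lies outside the KLF bar (13.0%, 3 of 23 regions). The SP/KLF share of the list (30.0%) lies inside its bar. The GC box alone is not plotted, and was found in 43.5% of KLF promoter regions, against 23.8%. Without the Klf1 window it was found in 6 of 16 (37.5%), for which no interval was computed.

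Other genes of the family and its partners were described from lists. Over all protein-coding genes, 56.5% had a start site peak, and the median score of the best start site summit was 1456. Of the 7 other KLF genes, 3 had a start site peak, namely Klf11 (score 1916), Klf16 (1890) and Klf8 (376), and Klf12, Klf14, Klf15 and Klf17 had none. Klf14 and Klf15 lacked a peak despite CpG ratios of 1.11 and 1.01, so that a CpG-rich start site was not always accompanied by one in this family. Of the 9 SP genes, Sp1, Sp2, Sp3 and Sp4 had a start site peak, with scores of 1581 (Sp3) to 2297 (Sp1), and the tissue-restricted Sp5 to Sp9 had none. All 9 genes of partners and ligases had one, among them the corepressor genes Ctbp1 (1581) and Sin3a (2310) and the ubiquitin ligase gene Fbxw7 (2140). Of the same list, Kat2b (1094), Sin3b (1106) and Crebbp (1212) scored below the median of 1456. A start site peak was also present in 5 of 5 genes from MEK5 to MEF2. Map2k5 (MEK5) scored 1518, Mapk7 (ERK5) 1606, Mef2a 1657, Mef2c 1851 and Mef2d 2008.

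The label of the cells was compared with marker genes in the same lists. A start site peak was present in 10 of 10 macrophage genes, among them Csf1r, Adgre1 and Spi1, against 56.5% of all protein-coding genes. It was present in 0 of 5 T cell genes, 1 of 5 neutrophil genes (S100a8), 2 of 4 B cell genes (Ms4a1 and Ebf1) and 5 of 5 genes of stroma and endothelium (Cdh5 1721, Pecam1 1345, Kdr 685, Col1a1 613 and Pdgfrb 411). An accessible start site is no measure of transcription, and the part of other cell types in the KLF sites was not tested.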

How the data were processed

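The authors prepared ATAC-seq libraries from BMDMs, trimmed the reads with BBDuk and Trimmomatic 0.39, aligned them to mm10 with ShortStack, filtered them with SAMtools 1.9 and called peaks with MACS2 2.2.6 (tools per the submitters' processing notes and the study's methods). Duplicate reads were kept, so that scores can include PCR copies. Only peaks that passed a strict q-value and overlapped between replicates were kept by the authors. The deposited files are 3 merged BED lists. Reference peaks and extended regions hold positions only, and the deposited summit list adds a score whose scale is not stated. It was used to describe and rank summits within that list. There were 0 columns per library and 0 columns of other samples, so depth, replicate spread and group tests could not be derived.

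Genes were taken from GENCODE M21 and sequence from GRCm38.p6 (primary chromosomes, with coordinates as in mm10). Positions count from 1, and distances run from the most upstream start site, negative upstream. Each region was searched for consensus sites on both strands, up to 100 bp from its best summit. NF-kB, MEF2 and CTCF sites were degenerate patterns, IRF was GAAA and GAAA 2 bases apart, and STAT6 was TTC and GAA 4 bases apart. The GC box and CACCC box were counted together as SP/KLF, and a region with several sites counted once. Calculations used Python 3.11.15, pandas 2.3.3, numpy 2.4.6, scipy 1.17.1, pysam 0.24.0 and samtools 1.23.1, and were tested on simulated intervals and sequences. All 10 members are described, each, where present, with its best start site and distal summits, widest peak, densest region and coding neighbours with a start site peak. The members, gene lists and motifs were chosen with earlier results of these data known, and the sequences shown were chosen after their values were seen.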

Additional observations from a re-analysis of the deposited data

How the results depend on the processing

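Of 43 recalculations of 9 summaries, 31 stayed within their limits and 12 moved. The limit was a factor of 1.5 for counts and medians of counts, and the 95% interval for the median score and for shares. The 9 genes with a start site peak became 10 with a 2500 bp window. With windows of 100 kb there were 134 regions, 218 peaks and 228 summits in place of 76, 120 and 126, and with summit scores at or above the list median there were 69 peaks and 75 summits. The median of 8 regions per gene became 4.5 at 20 kb, 15.5 at 100 kb (all protein-coding genes 2 and 9), 5 with scores at or above the list median and 5 with regions nearest to the KLF gene. The median summit score of 856 (95% interval 748 to 956) became 968 for the best summit of each region. The SP/KLF share of 19.7% became 11.8% within 50 bp of the summit (list 6.93%) and 9.43% in distal regions. Leaving out Klf1, or counting only regions with their best summit in the window, was added after seeing the data. Neither change moved a summary it was applied to beyond these limits. Leaving out Klf1 took the share of regions at promoters from 30.3% to 23.9%, past the 25.0% of the list. It also took the SP/KLF share from 19.7% to 14.9%, nearer to the 11.2% of the list. No paired analysis was possible because the lists carry no column per library. Read depth per library is unknown and the authors kept only peaks that passed a strict q-value and recurred in replicates, so an absent peak, as at the Klf1 start site or around Klf5, means not listed at this depth and filter.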
